A study of Mus musculus with 12 samples.

Results

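The expression of 9 genes of apoptotic-cell and debris recognition was followed through an injured mouse spinal cord, namely the receptor Trem2 with its adaptor Tyrobp, the receptor kinases Tyro3, Axl and Mertk, their ligands Gas6 and Pros1, and the bridging proteins Mfge8 and Lgals3. They were chosen by gene name, with earlier results of these data known. Their level was read from the array probesets that name only that gene. All 9 were measured, by 134 of 194262 probesets, among 15830 genes in all. Each gene level was the mean of its log2 probeset values on 1 array, with 5 probesets for Trem2 and 23 for Axl at the extremes.

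Each of 12 mice was measured on its own Affymetrix Mouse Exon 1.0 ST array. The comparison was between wild-type mice and EphA4 knockout littermates on a C57/BL6 background, and between laminectomy alone (sham-operated) and a left-sided lumbar hemisection (injured). There were 3 mice in each of the 4 groups, all taken 4 days after surgery and labelled as 9 to 14.5 weeks old. EphA4 is a receptor of the ephrin family that guides axons, and the knockout is not limited to one cell type, so that any difference between genotypes need not arise in phagocytes. The tissue was dissected from the left side of the spinal cord around the lesion or at the matching level, and was not sorted by cell type. In such bulk samples, fewer cells of a type and less RNA per cell cannot be told apart.

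The Epha4 level was 5.87 to 6.81 in the 6 wild-type arrays and 4.82 to 5.19 in the 6 knockout arrays, with no overlap. Replicate 2 of the sham-operated knockout group was labelled male but had an Eif2s3y level of 3.25, where the other arrays labelled male had 7.21 to 8.15 and those labelled female 3.21 to 3.49. Eif2s3y lies on the Y chromosome. Without that array, 7 of the 9 genes passed the test for injury, as they did with it. The mean level of the oligodendrocyte markers was 10.21 to 10.61 and that of the neuronal markers 8.80 to 9.40 over the 12 arrays, both defining cell types of the labelled tissue. Replicate 1 of the injured wild-type group stood apart in skeletal muscle markers, with a mean level of 6.23 where the other 11 arrays had 4.21 to 4.70. Without it, 7 of the 9 genes again passed the test for injury and none of them passed for genotype. RNA had been extracted in 4 labelled batches, of which 2 held both sham-operated and injured mice and 2 held 1 array each.

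Phagocytes recognise dying cells by phosphatidylserine exposed on the outer membrane. Gas6 and protein S (Pros1) attach to it and bind the TAM kinases Tyro3, Axl and Mertk, while Mfge8 links it to integrins on the phagocyte. Trem2 binds lipids and lipoproteins on microglia and macrophages, and signals through Tyrobp (DAP12), a membrane adaptor that recruits the kinase Syk. In the spinal cord these molecules are known for the clearance of myelin and cell debris and for restraint of inflammatory signalling.

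Promoter sequences were available for 8 of the 9 genes, from RefSeq on GRCm38.p6, each 300 bases from 250 before a transcript start to 50 bases after it. That start was the first base of the gene for 6 of them, and lay inside the gene for Axl (191 bases) and Tyro3 (1774 bases), so that these windows do not cover their outermost start. They were searched on both strands for GAGGAA (the core of PU.1 sites), TGANTCA (an AP-1 motif) and CACGTG (an E-box), and capitals mark the matches. Those of Trem2 and Axl are shown as genes that rose and hold a match, that of Lgals3 as the gene with the largest rise among the 9, and that of Tyro3 as a gene of the TAM family that did not pass the test.
Trem2 (chr17:48346151-48346450, + strand): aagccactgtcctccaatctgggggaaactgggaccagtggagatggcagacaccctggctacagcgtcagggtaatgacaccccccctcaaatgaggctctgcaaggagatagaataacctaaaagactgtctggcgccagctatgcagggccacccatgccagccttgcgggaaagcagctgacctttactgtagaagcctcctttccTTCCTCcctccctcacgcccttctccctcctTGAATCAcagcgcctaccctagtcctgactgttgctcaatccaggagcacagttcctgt
Axl (chr7:25788684-25788983, − strand): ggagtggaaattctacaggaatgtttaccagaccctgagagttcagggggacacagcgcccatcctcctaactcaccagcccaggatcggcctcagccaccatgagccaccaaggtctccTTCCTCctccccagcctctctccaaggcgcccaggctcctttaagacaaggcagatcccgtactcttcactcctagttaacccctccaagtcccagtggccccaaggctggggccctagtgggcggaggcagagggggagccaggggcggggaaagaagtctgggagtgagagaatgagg
Lgals3 (chr14:47373610-47373909, + strand): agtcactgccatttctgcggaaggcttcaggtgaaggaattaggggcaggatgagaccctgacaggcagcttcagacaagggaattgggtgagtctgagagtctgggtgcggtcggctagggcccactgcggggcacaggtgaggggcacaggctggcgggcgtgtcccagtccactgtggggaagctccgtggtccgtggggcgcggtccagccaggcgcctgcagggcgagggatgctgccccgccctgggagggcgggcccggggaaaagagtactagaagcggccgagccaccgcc
Tyro3 (chr2:119799264-119799563, + strand): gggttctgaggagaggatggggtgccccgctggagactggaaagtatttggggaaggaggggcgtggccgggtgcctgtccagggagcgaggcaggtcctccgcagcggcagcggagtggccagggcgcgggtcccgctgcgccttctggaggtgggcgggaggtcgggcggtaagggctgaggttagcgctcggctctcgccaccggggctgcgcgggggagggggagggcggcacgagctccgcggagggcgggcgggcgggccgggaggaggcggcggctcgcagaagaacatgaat
The Trem2 window held GAGGAA from position −40 and TGANTCA from position −9, counted from the transcript start, with no overlap between them. Axl and Mfge8 each held 1 GAGGAA, and Gas6, Lgals3, Mertk, Pros1 and Tyro3 held none of the 3 motifs. Of 32851 promoter windows of the same length, 28.3% held GAGGAA, 7.81% held TGANTCA and 7.15% held CACGTG. The matches are a description of the letters in these windows.

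Injury raised 7 of the 9 genes and lowered none, as the mean of both genotypes. Of all 15830 genes, 12.8% were called higher and 17% lower in that comparison. A gene was called at a Benjamini-Hochberg adjusted p under 0.05 over all genes in limma and a change of 1.2-fold or more. The order of the rises was Lgals3 (16.3-fold), Tyrobp (7.32-fold), Trem2 (4.22-fold), Pros1 (3.44-fold), Mertk (2.11-fold), Axl (2.04-fold) and Mfge8 (1.30-fold), and Gas6 and Tyro3 did not pass. In 6 of the 9 all 6 injured arrays lay above all 6 sham-operated arrays, as they did for 8.86% of all genes. In none of the 9 did they all lie below, as they did for 10.7% of all genes.

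**Figure D1:**
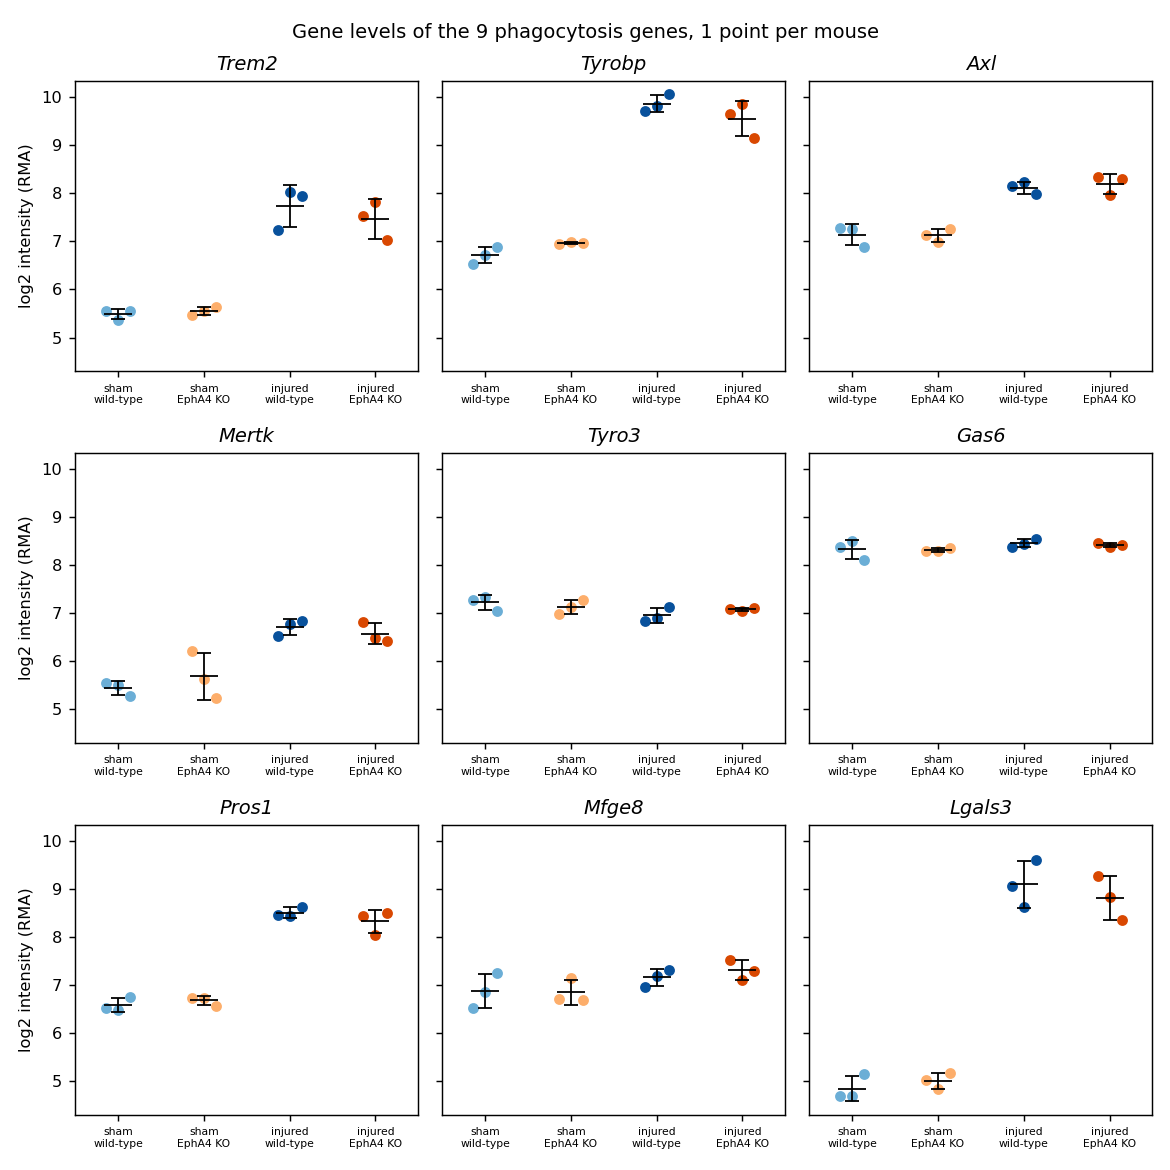
Gene level of each of the 9 genes (y axis, log2 RMA intensity, mean over probesets) in the 4 groups of 3 mice (x axis). Points are single arrays in replicate order, bars the group mean and SD. The injured arrays lie above all sham-operated arrays for Trem2, Tyrobp, Axl, Mertk, Pros1 and Lgals3 and overlap with them for Tyro3, Gas6 and Mfge8.

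Trem2, the lipid receptor, had log2 levels of 5.55, 5.37 and 5.55 in the sham-operated wild-type arrays and of 5.48, 5.55 and 5.64 in the sham-operated knockout arrays. After injury it had 7.23, 8.02 and 7.95 in wild-type and 7.54, 7.83 and 7.02 in knockout arrays. The sham-operated arrays lay within 0.3 of each other, the injured arrays were spread over 1 log2 unit, and no injured array reached down to the sham-operated range. The rise was 2.08 (SE 0.15, adjusted p = 2.7e-07 in limma, 6 arrays against 6) on the log2 scale. It was 2.39 among the 5 arrays of the first extraction batch and 1.87 among the 5 of the second.

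Tyrobp, the adaptor through which Trem2 and several other myeloid receptors signal, had levels of 6.54, 6.73 and 6.89 in sham-operated wild-type and 6.94, 6.98 and 6.96 in sham-operated knockout arrays. After injury these were 9.72, 9.82 and 10.06 in wild-type and 9.65, 9.87 and 9.16 in knockout arrays. The lowest injured array, knockout replicate 3, still lay more than 2 log2 units above the highest sham-operated array. Tyrobp rose by 2.87 (SE 0.11, adjusted p = 1.27e-09 in limma). Within the first and second extraction batches the rise was 3.16 and 2.82.

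Axl, a TAM kinase known to be induced in inflamed myeloid cells, had levels of 7.29, 7.25 and 6.89 in sham-operated wild-type and 7.14, 6.98 and 7.26 in sham-operated knockout arrays. The injured arrays had 8.15, 8.23 and 7.98 in wild-type and 8.35, 7.96 and 8.30 in knockout mice. The groups of one treatment overlapped and those of different treatments did not. The rise was 1.03 (SE 0.098, adjusted p = 3.95e-06 in limma).

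Mertk, the TAM kinase that drives engulfment of apoptotic cells by macrophages, had levels of 5.56, 5.50 and 5.27 in sham-operated wild-type and 6.20, 5.64 and 5.23 in sham-operated knockout arrays. The injured levels were 6.53, 6.78 and 6.84 in wild-type and 6.82, 6.49 and 6.42 in knockout mice. Replicate 1 of the sham-operated knockout group was the highest sham-operated array and lay just below the lowest injured array. Mertk rose by 1.08 (SE 0.14, adjusted p = 7.11e-05 in limma).

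Tyro3, the TAM kinase best known from neurons, did not pass the test. Its levels were 7.28, 7.34 and 7.06 in sham-operated wild-type and 6.98, 7.14 and 7.27 in sham-operated knockout arrays. Injured arrays had 6.84, 6.89 and 7.13 in wild-type and 7.08, 7.05 and 7.11 in knockout mice. All 4 groups overlapped with at least one other, and the difference was −0.16 (SE 0.0815, adjusted p = 0.155 in limma), with a 95% interval of −0.34 to 0.016. In wild-type mice alone it was −0.27 (adjusted p = 0.107 in limma).

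The kinases were also set against each other within each array, which removes whatever is common to an array. Axl minus Tyro3 had a mean of −0.042 (SD 0.12, n = 6) in sham-operated and 1.14 (SD 0.21, n = 6) in injured arrays, a shift of 1.19 with no overlap (two-sided exact permutation test within genotype, p = 0.005, adjusted p = 0.00625 over 5 pairs). Mertk minus Tyro3 shifted by 1.24 with no overlap (exact permutation p = 0.005, adjusted p = 0.00625), and 0.005 is the smallest p these permutations can give. Axl minus Mertk shifted by −0.05 (exact permutation p = 0.79), from 1.57 (SD 0.38) in sham-operated to 1.52 (SD 0.24) in injured arrays, and overlapped widely. These shifts show unequal change between genes and not that one of them stayed constant.

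Gas6, the ligand that binds all the TAM kinases, had levels of 8.37, 8.51 and 8.10 in sham-operated wild-type and 8.30, 8.29 and 8.36 in sham-operated knockout arrays. After injury they were 8.39, 8.43 and 8.54 in wild-type and 8.47, 8.38 and 8.43 in knockout arrays. Sham-operated wild-type replicate 2 lay above 5 of the 6 injured arrays. The difference of 0.12 (SE 0.076, adjusted p = 0.267 in limma) had a 95% interval of 0.97-fold to 1.22-fold.

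Pros1, protein S, an anticoagulant of plasma and a ligand of Tyro3 and Mertk, had levels of 6.51, 6.49 and 6.75 in sham-operated wild-type and 6.74, 6.73 and 6.57 in sham-operated knockout arrays. It had 8.45, 8.43 and 8.63 after injury in wild-type and 8.43, 8.05 and 8.50 in knockout mice. Every injured array was at least 1 log2 unit above every sham-operated array. The rise was 1.78 (SE 0.091, adjusted p = 1.04e-08 in limma), and 1.75 and 1.83 within the first and second extraction batches.

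Gas6 minus Pros1 within an array was 1.69 (SD 0.24, n = 6) in sham-operated and 0.026 (SD 0.16, n = 6) in injured arrays. The shift of −1.66 had no overlap (exact permutation p = 0.005, adjusted p = 0.00625 over 5 pairs). The TAM ligands thus changed unequally with injury, as did the kinases. Trem2 minus Tyrobp also shifted, by −0.80 (exact permutation p = 0.005, adjusted p = 0.00625), since the log2 rise of Tyrobp exceeded that of Trem2. With the median of the probesets in place of their mean, this last shift was −0.56 and did not pass (exact permutation p = 0.05, adjusted p = 0.0625).

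**Figure D2:**
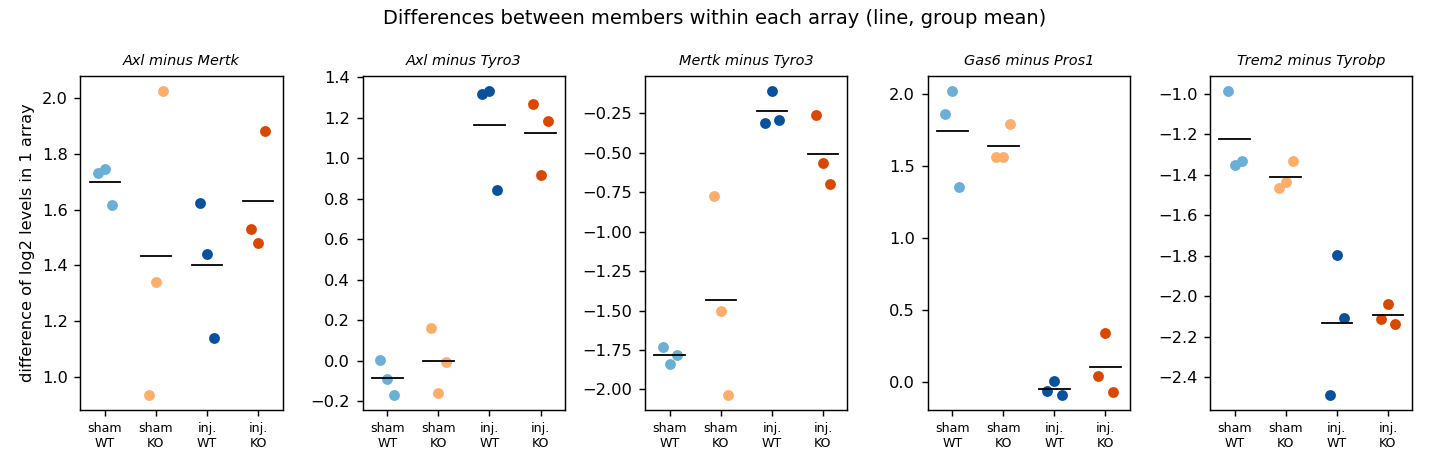
Difference between the log2 levels of 2 genes in the same array (y axis, its own range in each panel) for 5 pairs, by group of 3 mice (x axis). Points are arrays and lines group means. Sham-operated and injured arrays separate in 4 pairs and overlap for Axl minus Mertk, which shifted by −0.05.

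Mfge8, the secreted glycoprotein that bridges phosphatidylserine to integrins, had levels of 6.53, 6.85 and 7.25 in sham-operated wild-type and 6.71, 7.15 and 6.68 in sham-operated knockout arrays. Injured arrays had 6.97, 7.19 and 7.31 in wild-type and 7.53, 7.11 and 7.30 in knockout mice. The treatments overlapped in wild-type and in knockout mice. The mean rise of 0.37 (SE 0.13) passed the test narrowly (adjusted p = 0.0418 in limma), and did not pass in either genotype alone. It did not pass once any one of 8 of the 12 arrays was left out. Nor did it pass in limma with extraction batch in the model (adjusted p = 0.145), which leaves out the arrays that are alone in their batch.

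Lgals3, galectin-3, a sugar-binding protein released by activated phagocytes that can act as an opsonin, had levels of 4.70, 4.69 and 5.15 in sham-operated wild-type and 5.02, 4.84 and 5.16 in sham-operated knockout arrays. After injury they were 9.06, 8.62 and 9.60 in wild-type and 9.26, 8.84 and 8.35 in knockout mice. The lowest injured array lay more than 3 log2 units above the highest sham-operated one. Lgals3 rose by 4.03 (SE 0.18, adjusted p = 2.71e-09 in limma), the 8th largest increase of all 15830 genes. Tyrobp ranked 39th, Trem2 132nd, Pros1 203rd, Mertk 499th and Axl 531st by the same measure.

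In wild-type mice 6 of the 9 genes were called higher with injury, where 11.2% of all genes were called higher and 12.9% lower. In EphA4 knockout mice 6 of the 9 were called higher, where 8.98% of all genes were called higher and 11.5% lower. They were Trem2, Tyrobp, Axl, Mertk, Pros1 and Lgals3 in each genotype. The rise of Lgals3 was 4.25 (SE 0.25) in wild-type and 3.81 (SE 0.25) in knockout mice on the log2 scale, that of Trem2 2.24 and 1.91 (SE 0.21 each), that of Pros1 1.92 and 1.64 (SE 0.13 each), and that of Mertk 1.27 and 0.88 (SE 0.20 each). The difference ran the other way for Axl, at 0.98 in wild-type and 1.08 in knockout mice (SE 0.14 each). It also did for Mfge8, at 0.28 and 0.47 (SE 0.19 each), and for the uncalled Tyro3, at −0.27 and −0.048 (SE 0.12 each).

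**Figure D3:**
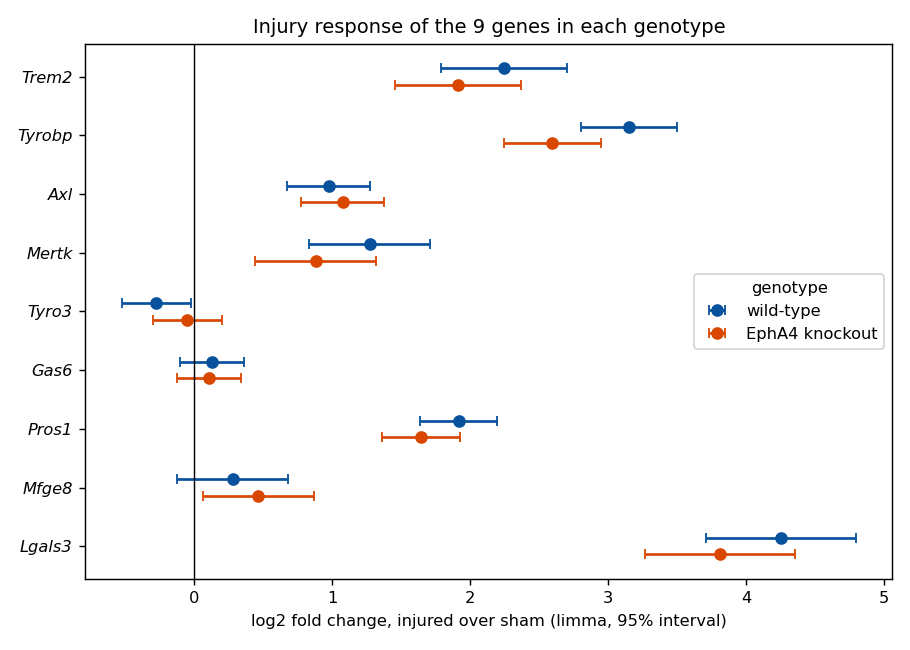
Log2 fold change of injured over sham-operated arrays (x axis, point estimate and 95% interval from limma) for each of the 9 genes (y axis), in wild-type (blue) and EphA4 knockout mice (orange), 3 arrays in each group. The intervals of the genotypes overlap for every gene, and those of Gas6 include 0 in each genotype.

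The injury response itself was compared between genotypes. None of the 9 genes, and 0% of all 15830, were called for this difference in limma, although 882 genes, Tyrobp alone among the 9, had an unadjusted p under 0.05. The Tyrobp response was 3.15 in wild-type and 2.59 in knockout mice on the log2 scale, a difference of −0.56 (SE 0.23, unadjusted p = 0.0306, adjusted p = 0.873 in limma). With 1 array left out the difference ran from −0.71 to −0.36. It was −0.36 without injured knockout replicate 3, the only array of its extraction batch. The intervals were wide: for Lgals3 the ratio of the 2 fold changes, knockout over wild-type, had a 95% interval of 0.43 to 1.25, and for Trem2 of 0.51 to 1.24.

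Genotypes were then compared within each treatment. Calls here needed an unadjusted p under 0.01 together with a change of 1.2-fold or more. None of the 9 genes was called among sham-operated arrays, where 1.35% of all genes were, nor among injured arrays, where 0.796% were. None was called for the mean of both treatments either, where 0.67% of all genes were. No unadjusted limma p of the 9 in these 3 comparisons was under 0.05, as against 997 of all genes among sham-operated arrays, 639 among injured arrays and 687 for the mean of both.

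Among sham-operated arrays, Tyrobp was the one gene whose groups did not overlap, with every knockout array above every wild-type array, as for 5.43% of all genes (6.34% lay entirely below). The difference was 0.24 (SE 0.11, unadjusted p = 0.0543 in limma). No gene was called either without replicate 2 of the knockout group, the array at odds with its sex label. Mertk differed by 0.25 (SE 0.21), and by −0.0076 without sham-operated knockout replicate 1. It differed by −0.053 with extraction batch in the model, which also leaves out that array, the only one of its batch. The other 7 genes lay between −0.099 for Tyro3 and 0.17 for Lgals3.

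Among injured arrays all 9 genes overlapped between genotypes, where 3.11% of all genes had every knockout array above every wild-type array and 5.51% every one below. The log2 difference, knockout minus wild-type, was −0.31 (SE 0.19) for Tyrobp, −0.28 (SE 0.28) for Lgals3, −0.28 (SE 0.25) for Trem2, −0.18 (SE 0.15) for Pros1, −0.14 (SE 0.15) for Mertk and −0.029 (SE 0.11) for Gas6. It was above 0 for Mfge8 at 0.16 (SE 0.15), Tyro3 at 0.13 (SE 0.12) and Axl at 0.085 (SE 0.14). Single arrays moved these values widely, Tyrobp from −0.47 without knockout replicate 2 to −0.11 without knockout replicate 3, and Lgals3 from −0.51 without wild-type replicate 2 to −0.024 without wild-type replicate 3. Trem2 ran from −0.53 without wild-type replicate 1 to −0.054 without knockout replicate 3. The model with extraction batch left out knockout replicate 3, the only array of its batch. In that model the difference was −0.074 for Tyrobp, −0.069 for Lgals3, −0.29 for Pros1 and 0.038 for Trem2, which turned its direction. The effects of batch and of leaving out that array are thus not separate here. Within the first and second batches, with 1 knockout array against 2 and 1 wild-type arrays, Trem2 differed by −0.16 and 0.30, Lgals3 by −0.27 and 0.20 and Mertk by −0.33 and 0.29. The 95% intervals allowed a Lgals3 level of 0.53 to 1.28 times and a Trem2 level of 0.56 to 1.23 times that of wild-type mice. A p that misses the threshold does not show that the genotypes had the same level.

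At the level of single exon probesets, 70 of the 134 probesets were called higher with injury and 0 lower, where 7.42% of all 179614 probesets that name 1 gene were called higher and 6.04% lower. All 18 probesets of Pros1 and all 5 of Tyrobp passed, with 19 of 23 for Axl, 17 of 21 for Mertk, 7 of 8 for Lgals3 and 4 of 5 for Trem2. None of the 22 of Tyro3, the 18 of Gas6 or the 14 of Mfge8 passed, although all 14 of Mfge8 were above 0, at 0.037 to 0.85. The Lgals3 probesets ranged from 0.55 to 5.55 on the log2 scale, and the lowest had a mean level of 4.27. One probeset of Trem2, with a level of 5.24, had a difference of 0.58, whereas its other 4 had 1.98 to 2.76. Probesets of a gene share its RNA and are not replicates.

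**Figure D4:**
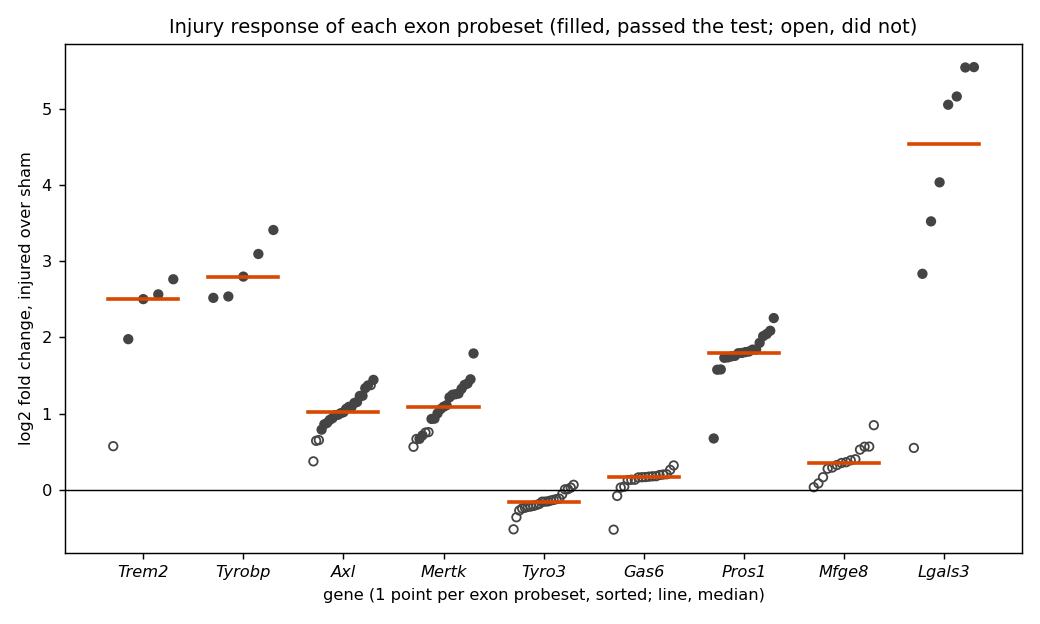
Log2 fold change of injured over sham-operated arrays (y axis, mean of genotypes) for each of the 134 exon probesets, sorted within each gene (x axis). Filled points passed the limma test over all probesets, open points did not, and the line is the median of the gene. The median is 4.54 for Lgals3, 1.80 for Pros1, 0.17 for Gas6 and −0.15 for Tyro3.

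The chain through which Tyrobp signals rose in part. Of 16 measured genes of receptors and kinases around Tyrobp, 8 were called higher and 0 lower, with a median of 0.49 beside −0.075 for all genes. Among all genes, 12.8% were called higher and 17% lower, for this and each list and marker set that follows. On the log2 scale Clec5a, another receptor that pairs with Tyrobp, rose by 2.35 (SE 0.11). The lipid phosphatase Inpp5d rose by 2.06 (SE 0.088) and the exchange factor Vav1 by 1.85 (SE 0.075). The adaptor Pik3ap1 rose less than these, and was 2.82-fold higher on the linear scale. Of a list for the microglial programme linked to Trem2 in other settings, 15 of 15 measured genes were called higher, with a median of 1.93. Among them Lilrb4 rose by 5.85, the glycoprotein Gpnmb by 5.51 and the lysosomal proteases Ctsz and Ctsd by 2.33 and 1.59. Whether these genes depended on Trem2 here was not tested, and the list was chosen with earlier results of these arrays known.

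Of 12 measured genes that process or regulate the TAM system, 7 were called higher and 1 lower (median 0.32). Ifnar2, a subunit of the interferon receptor with which TAM kinases act, rose by 1.14 (SE 0.087), Socs3, a brake on cytokine signalling, by 1.00 (SE 0.16) and the protease Furin by 0.72 (SE 0.13). Tub, a proposed bridging ligand of Mertk, fell by 0.40 (SE 0.062).

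Of 18 other receptors or integrin chains for apoptotic cells, 10 were called higher and 1 lower (median 0.48). Stab1, a scavenger receptor for phosphatidylserine, rose by 3.11 (SE 0.097), Havcr2 (TIM-3) by 1.12, and the integrin chains Itgb5 and Itgav, which form receptors for Mfge8, by 1.38 (SE 0.075) and 0.87 (SE 0.075). The one called lower was Bai1, a receptor that couples to the engulfment machinery, at −0.38. Of the signals that attract phagocytes or mark their targets, 10 of 16 were called higher and 1 lower, and the complement chains C1qa, C1qb and C1qc rose by 2.54, 2.08 and 2.40. The one called lower was Cx3cl1, a neuronal chemokine, at −0.44, while its receptor Cx3cr1 rose by 1.44.

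The engulfment machinery inside the cell had 4 of 15 genes called higher and 0 lower, with a median of 0.054. They were the GTPase Rac2 (2.07), the lipid exporter Abca1 (1.99), and the actin regulators Wasf2 (0.57) and Was (0.47). Of 8 other galectins and related genes, 2 were called higher and 0 lower, Lgals9 (1.59) and Lgals3bp (1.46), with a median of 0.0089. The shares of all genes beside these small counts were 12.8% higher and 17% lower.

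**Figure D5:**
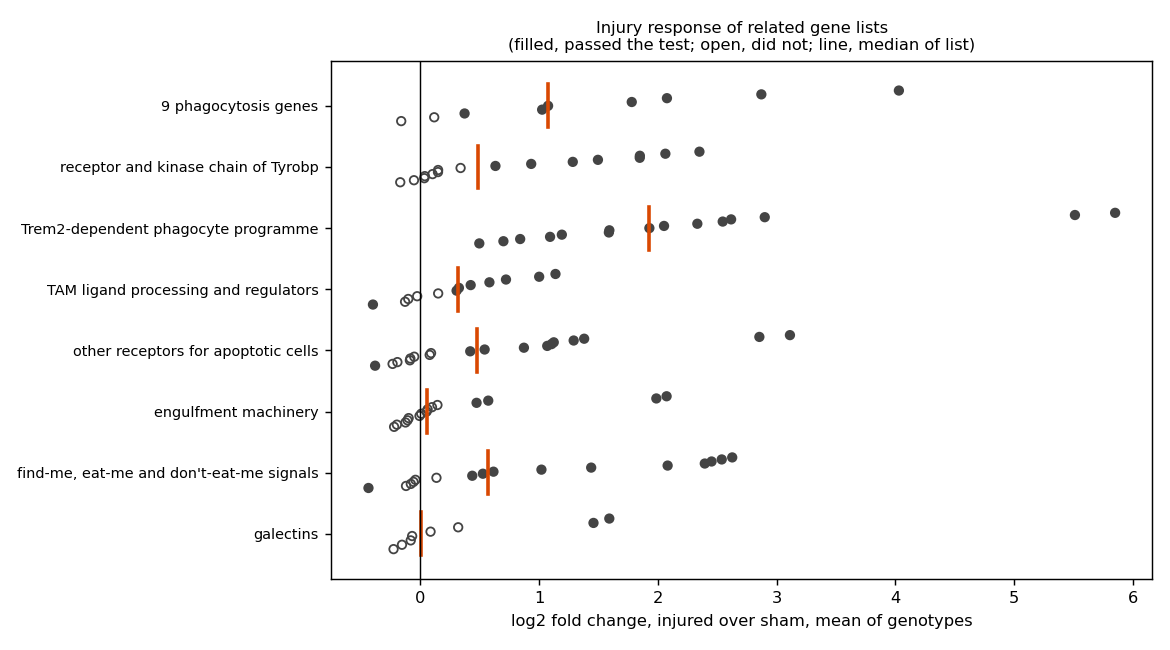
Log2 fold change of injured over sham-operated arrays (x axis, mean of genotypes) for each measured gene of the 9 phagocytosis genes and of 7 related lists (y axis). Filled points passed the limma test over all genes, open points did not, and the line is the median of the list. The medians are 1.08 for the 9 genes, 1.93 for the list of a microglial programme linked to Trem2 in other settings and 0.054 for the engulfment machinery.

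For the difference between genotypes, 4 genes of these lists were called in injured arrays at the same unadjusted threshold, and 0 in sham-operated arrays. All 4 were lower in knockout mice and without overlap of the groups. Among all genes, 0.796% were called in injured arrays, 21 higher and 105 lower, and 1.35% in sham-operated arrays. In injured arrays 5.51% of all genes had every knockout array below every wild-type array. The nucleotide receptor P2ry6, which triggers uptake by microglia, was at 7.44 (SD 0.21, n = 3) in wild-type and 6.76 (SD 0.28, n = 3) in knockout arrays. The fatty acid-binding protein Fabp5, measured by 1 probeset, was at 7.23 (SD 0.23) and 6.40 (SD 0.43), the adaptor Lcp2 at 7.11 (SD 0.20) and 6.63 (SD 0.10), and Rac2 at 7.52 (SD 0.18) and 7.06 (SD 0.17). P2ry6 and Fabp5 were also called for the mean of both treatments. The adjusted p in limma was 0.998 for each of the 4 in injured arrays.

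Markers of microglia and macrophages moved with these genes. Of 15 macrophage and monocyte markers, 14 were called higher with injury (median 2.00), among them Cd68 by 3.93 (SE 0.13) and Itgb2 by 2.81 (SE 0.070). The mean level of the list was 4.73 to 4.92 in the sham-operated and 6.44 to 7.02 in the injured arrays, and its rise was 1.93 and 1.96 within the first and second extraction batches. Of 10 homeostatic microglia markers 8 were called higher (median 1.04), and their mean level was 5.37 to 5.66 in sham-operated and 6.58 to 6.97 in injured arrays. The part of these cells in the changes of the 9 genes was not tested.

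Other cell types moved less evenly, beside 12.8% of all genes called higher and 17% lower. Of 9 markers of pericytes, fibroblasts and meninges 4 were called higher (median 1.35), with Dcn at 2.56 (SE 0.37), and the mean level ran from 5.02 to 6.41 in sham-operated and from 6.33 to 8.22 in injured arrays. Of 7 endothelial markers 4 were higher, and of 8 neutrophil markers 2, Csf3r and Mmp8. Of 8 astrocyte markers 4 were higher and 2 lower, and of 8 neuronal markers 6 were lower and none higher, with Syt1 at −0.69 (SE 0.089). None of the markers of T cells (7 measured), B cells (4), oligodendrocytes (6) or skeletal muscle (6) was called in either direction, although the muscle list was high in the 1 injured wild-type array named above, and Egr2 was the one of 3 Schwann cell markers called higher. The part of these cell types was not tested either.

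Within injured arrays the mean level of the macrophage list overlapped between wild-type and knockout groups, at 6.59 to 7.02 and 6.44 to 6.66. The median difference over the 15 markers, knockout minus wild-type, was −0.31, with 1 above 0 and 0 called. For Itgam, Itgb2, Aif1, Emr1, Fcgr1 and Fcgr2b every knockout array lay below every wild-type array. Itgam was at 8.12 to 8.54 in wild-type and 7.87 to 7.98 in knockout arrays. In the same order, Itgb2 was at 7.99 to 8.23 and 7.68 to 7.87, and Aif1 at 6.57 to 6.68 and 6.06 to 6.47. Emr1 was at 7.98 to 8.26 and 7.47 to 7.96. Fcgr1 was at 7.13 to 7.27 and 6.82 to 6.99, and Fcgr2b at 6.46 to 6.71 and 6.24 to 6.35. The other markers of the list overlapped, such as Cd68 (10.52 to 10.96 and 10.00 to 10.82). Among all genes, 5.51% had every knockout array below every wild-type array.

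The genes whose levels followed a member most closely over the 12 arrays were named by Pearson correlation. For Tyrobp they were Cd68 (r = 0.996), Gusb (0.996) and Fcrls (0.995), for Lgals3 Cyba, Gpnmb and Cd68 (0.996 each), and for Trem2 Myo1f (0.991), Pla2g15 (0.990) and Cd48 (0.988). Pros1 was closest to Tm4sf1 (0.997), Vim (0.995) and Ccna2 (0.995), Axl to Plod3 (0.976), Csf1r (0.973) and Myh9 (0.973), and Mertk to Nup188 (0.979), Plod2 (0.960) and Tyms (0.956). Gas6 was closest to Mbc2 (0.926), Hmg20b (0.868) and Prnp (0.866), Tyro3 to Fbxo32 (0.875), Jup (0.870) and Qdpr (0.841), and Mfge8 to Tmem50a (0.922), Wbscr22 (0.909) and Fut11 (0.889). The 12 points fall into sham-operated and injured clusters, so that any pair of genes with a large injury effect has a high r.

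By the deviations from the group means, the closest gene was Gab3 for Trem2 (0.972), 5730590G19Rik for Tyrobp (0.970), Abcc9 for Axl (0.934), Cerk for Mertk (0.925) and Npepl1 for Tyro3 (0.906). It was Adam19 for Gas6 (0.935), Zfp326 for Pros1 (0.952), Gtf2f2 for Mfge8 (0.967) and Lsp1 for Lgals3 (0.959). These genes were picked for the highest r among all measured genes, and such a pick can reach a high r by chance. How high it would be among unrelated genes was not tested, so no relation to the named genes is drawn from these values.

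With the group means removed, the closeness of the members to each other differed from that over all arrays. Trem2 and Tyrobp had r = 0.986 over the 12 arrays and 0.743 for the deviations from the group means, and Tyrobp and Lgals3 had 0.993 and 0.668. Axl and Tyrobp had 0.921 over the arrays and −0.655 for the deviations, and Tyro3 and Gas6, which did not pass the test for injury, 0.184 and 0.802. Each value rests on 12 arrays, with fewer independent values once the group means are removed. Within-group deviations also share the array's own preparation.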

How the data were processed

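RNA of 12 spinal cords was measured on Affymetrix exon arrays, with 1 mouse per array. Per the labels and the methods, the authors normalized the arrays by RMA in Partek, with mm9 named, and the deposited values are log2 intensities, 1 per core exon probeset. Column medians ran from 5.79 to 5.85. The sources differ on the dissected side (injured or uninjured left side) and on the RNA used, and not on the groups.

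Probesets naming several genes (1331) or no gene (13317) were not used, and the others were averaged to 15830 genes (median of 9 probesets, 809 genes with 1). Symbols were matched to RefSeq, 13745 directly and 2046 by a unique synonym. Tests were run with limma 3.58.1 (statmod 1.5.0, R 4.3.3) on 4 group means, or on the 6 arrays of a treatment for genotype, after a test on simulated data. Injury was called at an adjusted p under 0.05 and a fold of 1.2, genotype at an unadjusted p under 0.01 and the same fold. Precision is limited by the number of arrays, and p-values measure the spread between single mice. Replicate numbers did not pair arrays: of 18 same-numbered pairs, 5 had a correlation of deviations over 0.1 (−0.30 to 0.22).

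The 9 genes, the related lists and the marker lists were chosen with earlier results of these data known. Genes named in a list are up to 4 with the smallest p for injury and any called for genotype, and for each of the 9 the 3 most correlated genes and the 1 most correlated in deviations from group means. Alternatives were the median of probesets, bright probesets, other scaling, a filter on dim genes, sex as labelled, batch, a replicate block and array weights. Further ones were the per-gene analysis of variance of the methods, 1 fit of all arrays for genotype, and leaving out each array. The model with sex kept the label of the 1 array whose Y-linked level is at odds with it. The model with extraction batch left out each array that was alone in its batch. Genes of the lists without a probeset of their own were not analysed here.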

Additional observations from a re-analysis of the deposited data

How the results depend on the processing

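The calls of Trem2, Tyrobp, Axl, Mertk, Pros1 and Lgals3 for injury held under every alternative run, and no alternative gave a call for any of the 9 genes in the genotype comparisons or for the difference of the injury responses. Mfge8 lost its call for injury with the median of probesets (0.41), centring (0.32), extraction batch (0.35) and a replicate block (0.37, adjusted p = 0.052 in limma), and ran from 0.29 to 0.47 with 1 array left out (adjusted p 0.0105 to 0.101). The replicate block changed no other call, the numbers pair no mice by the labels, and 2 of 12 arrays correlated best with their own number. Calls gained in 1 genotype were Tyro3 in wild-type mice with centring (−0.35) and Mfge8 in knockout mice with quantile normalization (0.54) and array weights (0.58). Trem2 minus Tyrobp no longer passed with the median of probesets (−0.56). Axl minus Mertk turned to 0.062 with that median and ran from −0.17 to 0.098 with 1 array left out. Among uncalled values, Tyro3 for injury in knockout mice changed sign with quantile normalization (0.033; −0.12 to 0.021 with 1 array left out). For genotype in sham-operated arrays, the sign changed with extraction batch for Mertk (−0.053; −0.0076 to 0.48 with 1 array left out) and Mfge8 (0.055; −0.20 to 0.16), with bright probesets and array weights for Axl (0.034 and 0.0080; −0.14 to 0.057) and Gas6 (0.019 and 0.017; −0.12 to 0.081), with the median of probesets for Tyro3 (0.024), and with 1 array left out for Trem2 (−0.0019 to 0.096). In injured arrays it changed with extraction batch for Trem2 (0.038, from −0.28), and with centring and quantile normalization for Gas6 (0.0002 and 0.021; −0.062 to 0.016). The median of all genes, injured minus sham-operated, was −0.075 as deposited, −0.13 after centring and −0.061 after quantile normalization, and no gene among the called 6 changed direction. With only bright probesets, 66 of 112 probesets of the 9 genes were called higher and 1 lower. Of all 89807 bright probesets that name 1 gene, 8840 were called higher and 11643 lower. The one called lower was of Tyro3, and 2 of 12 for Mfge8 were called higher, where none passed among all probesets. Brightness was taken from the mean of all 12 arrays, so that a probeset can count as bright through its injured level. Array data give no counts, so that signal near background limits the dim probesets.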
